A study of Mus musculus with 12 samples.

Results

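Cathepsins are proteases that mostly work in lysosomes, the acidic compartments in which cells digest what they take up and what they discard. The genes described here are 10 cathepsin genes, Ctsa, Ctsb, Ctsd, Ctse, Ctsh, Ctsk, Ctsl, Ctss, Ctsw and Ctsz, found by symbol among the 38887 gene identifiers of the count table. The cells were Ly6G+ spleen cells of mice aged 2 days, 7 days, 14 days and 6 weeks. Neutrophils carry Ly6G on their surface, and at all 4 ages the labels name the cells PMN-MDSC, myeloid-derived suppressor cells that resemble neutrophils and can restrain T cells. Each age had 3 libraries of polyadenylated RNA, and the series title asks what regulates a suppressive activity that newborn neutrophils hold for a limited time. Age is the one feature by which the labels separate the groups. Strain, sex, genotype, treatment and the number of mice behind a library are not given in the sources used here. P-values here therefore reflect only how libraries of the same age varied, in a spread shared over the 4 ages. That variation may be technical.

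The 12 libraries held 34495767 to 38795913 counts and 18912 to 20255 detected genes. Neutrophil markers were high as a sum throughout, between 76013 and 113045 CPM, counts per 1000000 of the normalized library size. Ngp and S100a9 were the most abundant of them, and single markers differed with age. Ly6g had a mean of 93.7 CPM at 2 days, 103 at 7 days, 168 at 14 days and 178 at 6 weeks. In the tests below, 28.6% of the 14 markers were lower and 14.3% higher at 2 days than at 6 weeks. The shares of all genes tested were 19.7% and 20.7%. At 7 days 35.7% were lower and 14.3% higher, beside 26.6% and 24.5%. Summed counts of Y-linked genes were 1816 to 4010 in the libraries of 2 and 7 days and 0 or 1 in those of 14 days and 6 weeks, so the sex of the mice cannot be told apart from age between those pairs of ages. The 2-day library of replicate 2 and the 14-day library of replicate 1 stood apart from the others of their age. Spearman correlations with their partners were 0.971 and 0.98 for the first and 0.986 for the second, against 0.991 to 0.995 for the other pairs of replicates. Where a call changes, or a count or median given here moves by over 1.5 times, without either library, the value without it is given too. Calls over all genes change in those settings as well, and are given beside the larger moves.

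As background, cathepsins fall into classes by the residue that cuts the peptide bond. Ctsb, Ctsh, Ctsk, Ctsl, Ctss, Ctsw and Ctsz encode cysteine cathepsins, Ctsd and Ctse aspartic cathepsins, and Ctsa a serine carboxypeptidase. They are made as inactive precursors, carry a mannose phosphate tag that routes most of them to lysosomes, and mature there at low pH. In leukocytes they degrade ingested protein and process the invariant chain and peptides for MHC class II, and one of the family, cathepsin C, activates the serine proteases of neutrophil granules. Inhibitors of the stefin, cystatin and serpin families restrain those that escape into the cytosol or the extracellular space.

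Of the 10 genes, 9 differed among the 4 ages in a joint test (edgeR's quasi-likelihood test, adjusted p under 0.05 over 15494 genes), beside 69.2% of all genes tested. The gene that did not pass was Ctsk, with an adjusted p of 0.615. Ctsa, Ctsb, Ctsd, Ctss, Ctsw and Ctsz had their highest mean at 6 weeks, Ctsh at 7 days, Ctse and Ctsl at 2 days. All 10 genes passed the filter on low counts.

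RefSeq promoter windows, which run from 250 bases before to 50 bases after a gene's start on GRCm38.p6, were at hand for 6 of the 10 genes, with 7 windows in all because Ctsa has a pair of starts. Ctsb, Ctse, Ctsh and Ctsw had no entry. The windows were searched on both strands for 6 motifs. CACGTG is the core bound by the MiT/TFE factors that drive lysosomal genes, and TCACGTGA is its extended form and holds CACGTG within it. The interferon-stimulated response element, searched as a pair of GAAA with any 2 bases between them, is bound by interferon regulatory factors, GAGGAAGT by the myeloid factor Spi1, TTGCNNAA by C/EBP factors and TGANTCA by AP-1. Those motifs were kept after a first look at more motifs in these windows, so their presence is a description only. The 3 stretches below are shown because they hold the TCACGTGA matches of Ctsd and Ctsa and the paired matches of Ctss, the gene with the smallest joint p of the 10. Capitals mark the matches.
Ctsd, chr7:142387908-142387937, minus strand: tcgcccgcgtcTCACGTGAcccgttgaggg
Ctsa, chr2:164833757-164833786, plus strand: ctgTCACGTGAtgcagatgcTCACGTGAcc
Ctss, chr3:95526762-95526791, plus strand: aatGAAACCGAAAtgaaagttcACTTCCTC
The Ctsd window held 1 TCACGTGA that began 99 bases before the start, and a further CACGTG began 245 bases before it. In one of the Ctsa windows TCACGTGA began 13 bases before the start and again 4 bases after it. TCACGTGA was present in 0.974% and CACGTG in 7.15% of 32851 promoters of the same length. In the Ctss window the interferon-stimulated response element began 21 bases before the start. The reverse complement of GAGGAAGT began 2 bases before the start and ran across it. These motifs were found in 3.44% and 3.2% of promoters. Ctsl had a CACGTG 236 bases before its start and a TTGCNNAA 114 bases before it, and Ctsk had TTGCNNAA 76 bases before and 24 bases after its start. TTGCNNAA was present in 10.8% of promoters. The Ctsz window and the other Ctsa window held none of the 6 motifs, and TGANTCA, present in 7.81% of promoters, was in none of the 7 windows. Starts here are those of RefSeq. For Ctsd, Ctsl and the matched Ctsa window they lie inside the gene spans given below. The TCACGTGA matches and the CACGTG of Ctsl lie inside those spans too.

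Levels between genes were compared as CPM per kilobase of the gene's exons, since CPM alone favours long transcripts. On that scale Ctsd, which encodes the main aspartic protease of lysosomes, was the most abundant cathepsin at every age. At 6 weeks the mean level per kilobase was 912 ± 185 (SD, n = 3) for Ctsd, 265 ± 15.3 for Ctsb, 210 ± 13 for Ctss, 136 ± 15 for Ctsz, 83.6 ± 9.01 for Ctsa and 41.1 ± 0.91 for Ctsh. Below these came Ctse at 12.2 ± 1.96, Ctsl at 5.01 ± 0.617, Ctsw at 3.47 ± 0.582 and Ctsk at 0.492 ± 0.0413. No neighbours in that order shared a value at 6 weeks. At 2 days the order was Ctsd (543 ± 166), Ctsz (64.9 ± 10.3), Ctsb (51.3 ± 2.24), Ctss (48.5 ± 4.35), Ctsa (39.7 ± 9.17), Ctse (27 ± 4.68), Ctsh (18.4 ± 1.65), Ctsl (12.7 ± 1.77), Ctsw (1.27 ± 0.505) and Ctsk (0.396 ± 0.217). There the libraries of Ctsb overlapped those of Ctss, and those of Ctss overlapped those of Ctsa. Ctsz overlapped Ctss at 7 days, and at 14 days Ctsb overlapped both Ctss and Ctsz and Ctse overlapped Ctsl. When the length of the principal transcript replaced the union of exons, Ctsh moved from 41.1 to 114 at 6 weeks and from 18.4 to 51.2 at 2 days and the ranks between Ctsb and Ctse changed. Ctsd stayed first and Ctsl, Ctsw and Ctsk last with both lengths.

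Whether the counting kept strand is not given in the sources used here, so reads of overlapping genes may be mixed. In GENCODE M21 the opposite strand holds Neurl2 and Pltp at Ctsa, Fdft1 at Ctsb, Gm47123 at Ctsl, Fibp at Ctsw and Nelfcd at Ctsz. On the same strand Gm49369 overlaps Ctsd, Gm49230 overlaps Ctsl and the pseudogene Hmgb1-ps5 overlaps Ctss. Ctse, Ctsh and Ctsk overlap no other gene.

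Ctsb (chr14:63122462-63145923, plus strand, GRCm38) encodes cathepsin B, a cysteine protease that both cuts within proteins and trims their ends. Its level was 313, 322 and 295 CPM in the 3 libraries of 2 days, 999, 1008 and 937 at 7 days, 463, 692 and 691 at 14 days and 1539, 1563 and 1710 at 6 weeks. The libraries of the 4 ages did not overlap, and the order was 2 days, 14 days, 7 days and 6 weeks. The 2-day level lay 5.17-fold below that of 6 weeks (log2 fold change -2.37, SE 0.16, adjusted p = 4.74e-07). Ctsb rose 3.16-fold from 2 to 7 days (1.66, SE 0.16, adjusted p = 6.55e-06) and was 1.6-fold lower at 14 days than at 7 days (-0.67, SE 0.15, adjusted p = 0.00348).

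Ctss (chr3:95526786-95556403, plus strand) encodes cathepsin S, which cuts the invariant chain in antigen-presenting cells and stays active at neutral pH. Its CPM was 72.5, 64.1 and 61 at 2 days, 141, 138 and 138 at 7 days, 139, 180 and 164 at 14 days and 291, 266 and 300 at 6 weeks. All libraries of 2 days were below all others and all libraries of 6 weeks above all others, while those of 7 and 14 days overlapped. From 2 days to 6 weeks the difference was 4.33-fold (log2 fold change at 2 days -2.12, SE 0.12, adjusted p = 1.42e-07). Ctss rose 2.11-fold from 2 to 7 days (1.08, SE 0.12, adjusted p = 1.88e-05), and the step from 7 to 14 days did not pass (0.21, SE 0.12, adjusted p = 0.154).

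Ctsl (chr13:64359337-64370890, minus strand) encodes cathepsin L, a strong endopeptidase of lysosomes. It ran the other way, with 82, 71.5 and 94.4 CPM at 2 days, 39.2, 46.2 and 46.5 at 7 days, 78.2, 32.2 and 28.1 at 14 days and 36.9, 29 and 31.6 at 6 weeks. The 2-day libraries were above all those of 7 days and 6 weeks, and replicate 1 of 14 days lay within the range of 2 days. Ctsl was 2.54-fold higher at 2 days than at 6 weeks (log2 fold change 1.35, SE 0.31, adjusted p = 0.00396) and fell from 2 to 7 days (-0.91, SE 0.3, adjusted p = 0.0252). The latter call was lost without replicate 1 or 3 of 2 days or without any 1 library of 7 days, with adjusted p from 0.0538 to 0.103. The values at 14 days turned on replicate 1. With that library the change from 7 to 14 days was 0.07 (adjusted p = 0.868), and without it -0.55 (adjusted p = 0.0143). The change from 2 to 14 days was -0.84 (adjusted p = 0.0595) with it and -1.45 (adjusted p = 5.44e-05) without it.

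Ctsk (chr3:95499256-95509362, plus strand) encodes cathepsin K, the collagen-degrading protease of osteoclasts, and ends 17423 bases before Ctss on the same strand. It was rare, with 9 to 33 counts per library and a level of 0.23, 0.856 and 0.712 CPM at 2 days, 0.588, 0.715 and 0.729 at 7 days, 0.875, 0.898 and 0.809 at 14 days and 0.808, 0.742 and 0.683 at 6 weeks. The library of replicate 1 at 2 days was the lowest, and no comparison of ages passed the test. Its SE of 0.39 to 0.4 on the log2 scale is the widest among the 10 genes, so differences of this size were not detectable at this depth.

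Ctsh (chr9:90054152-90076089, plus strand) encodes cathepsin H, an aminopeptidase. Its CPM was 77.1, 91.2 and 79.8 at 2 days, 189, 196 and 198 at 7 days, 163, 162 and 157 at 14 days and 187, 187 and 180 at 6 weeks. The 2-day libraries stood below all others, and the 3 later ages lay close together. Ctsh rose 2.35-fold from 2 to 7 days (log2 fold change 1.23, SE 0.1, adjusted p = 1.99e-06). It was 2.24-fold lower at 2 days than at 6 weeks (-1.16, SE 0.1, adjusted p = 2.23e-06), and 7 days and 6 weeks differed by 0.07 (SE 0.09, adjusted p = 0.542). The fall from 7 to 14 days (-0.28, adjusted p = 0.0294) did not pass without replicate 2 of 7 days, replicate 1 of 14 days or replicate 3 of 14 days, with adjusted p up to 0.0933.

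Ctsz (chr2:174427493-174439039, minus strand) encodes cathepsin Z, also called cathepsin X, a carboxypeptidase found in myeloid cells. Its CPM was 91, 110 and 80.1 at 2 days, 161, 148 and 137 at 7 days, 92.4, 138 and 132 at 14 days and 214, 172 and 201 at 6 weeks. Here too 2 days was lowest and 6 weeks highest, with replicate 1 of 14 days within the range of 2 days. Ctsz was 2.09-fold lower at 2 days than at 6 weeks (log2 fold change -1.07, SE 0.17, adjusted p = 0.000325) and rose 1.59-fold from 2 to 7 days (0.67, SE 0.16, adjusted p = 0.00542). The lower level at 14 days than at 6 weeks (-0.7, adjusted p = 0.0119) had an adjusted p of 0.0524 without replicate 1 of 6 weeks. The difference between 7 days and 6 weeks (-0.4, adjusted p = 0.0596) passed without replicate 2 of 2 days, replicate 1 of 14 days or replicate 2 of 6 weeks, with adjusted p from 0.0266 to 0.0495. From 2 to 14 days it was 0.37 (adjusted p = 0.125), and without replicate 2 of 2 days or replicate 1 of 14 days it was 0.5 or 0.53 (adjusted p = 0.0333 and 0.0224).

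Ctsw (chr19:5465043-5468507, minus strand) encodes cathepsin W, known from cytotoxic T cells and NK cells. It had 43 to 279 counts per library, with 3.32, 1.42 and 2.44 CPM at 2 days, 3.06, 1.91 and 2.87 at 7 days, 2.16, 3.89 and 3.7 at 14 days and 6.94, 7.39 and 5.3 at 6 weeks. The 6-week libraries were above all others, and the 3 younger ages overlapped. Ctsw was 2.72-fold lower at 2 days than at 6 weeks (log2 fold change -1.44, SE 0.32, adjusted p = 0.00335) and 2.5-fold lower at 7 days (-1.32, SE 0.32, adjusted p = 0.00406). The 14-day difference (-1.01, SE 0.31, adjusted p = 0.0414) passed in 9 of 20 other settings. Among those that leave out 1 library it was lost without replicate 3 of 2 days, replicates 1 or 3 of 7 days, or any library of 14 days or 6 weeks, and adjusted p reached 0.126 over all settings.

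**Figure D1:**
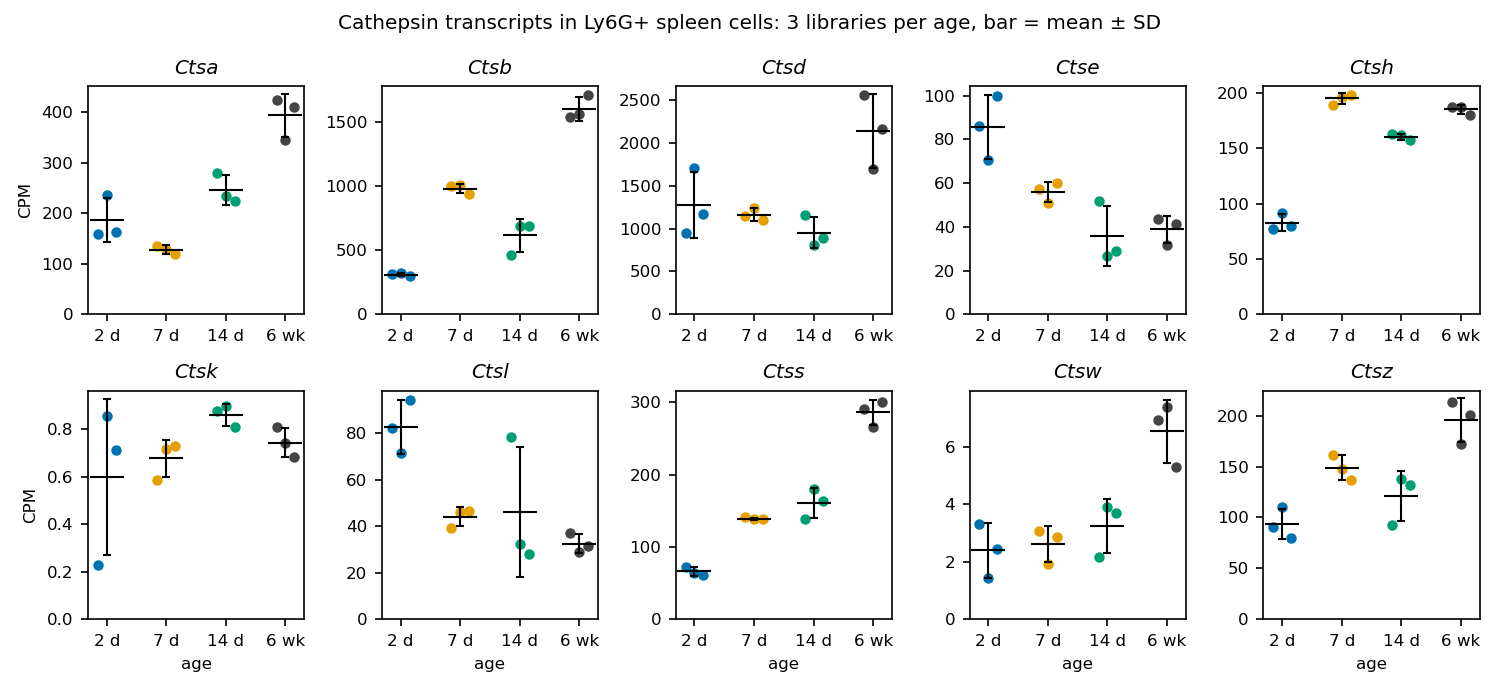
Level of each of the 10 cathepsin genes in CPM (vertical axis, own scale per panel, starting at 0) at 4 ages (horizontal axis), with 1 point per library and the mean ± SD of 3 libraries. Ctsb runs from 295 CPM at 2 days to 1710 CPM at 6 weeks, Ctsl and Ctse are highest at 2 days, and Ctsk stays below 1 CPM throughout.

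Ctsd (chr7:142375911-142388038, minus strand) encodes cathepsin D, an aspartic endopeptidase. Its CPM was 954, 1711 and 1168 at 2 days, 1154, 1244 and 1099 at 7 days, 1157, 809 and 890 at 14 days and 2564, 1696 and 2171 at 6 weeks. Replicate 2 of 2 days was above the lowest library of 6 weeks, and the 3 younger ages overlapped each other. Ctsd was lower than at 6 weeks by 1.84-fold at 7 days (log2 fold change -0.88, SE 0.22, adjusted p = 0.00605) and by 2.25-fold at 14 days (-1.17, SE 0.23, adjusted p = 0.00381). The 2-day difference (-0.75, SE 0.22, adjusted p = 0.0188) did not pass without replicate 3 of 2 days (-0.72, adjusted p = 0.0531), replicate 1 of 6 weeks (-0.6, adjusted p = 0.0789) or replicate 3 of 6 weeks (-0.74, adjusted p = 0.0505). No step between the younger ages passed. That from 2 to 7 days was -0.13 and had the other sign when library totals alone set the scale (0.05) or replicate 2 of 2 days was left out (0.16).

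Ctse (chr1:131638306-131675505, plus strand) encodes cathepsin E, an aspartic protease of endosomes known from immune, gastric and erythroid cells. Its CPM was 86.1, 70.7 and 100 at 2 days, 57.2, 50.9 and 59.9 at 7 days, 51.6, 26.6 and 28.9 at 14 days and 43.4, 31.7 and 41.2 at 6 weeks. The libraries of 2 days were above all others, and those of 14 days and 6 weeks overlapped. Ctse was 2.21-fold higher at 2 days than at 6 weeks (log2 fold change 1.15, SE 0.23, adjusted p = 0.00179) and 2.41-fold lower at 14 days than at 2 days (-1.27, SE 0.23, adjusted p = 0.00165). The step from 2 to 7 days (-0.61, adjusted p = 0.0399) was lost without replicates 1 or 3 of 2 days, any library of 7 days or replicate 3 of 6 weeks, and that from 7 to 14 days (-0.65, adjusted p = 0.0337) without replicates 1 or 3 of 7 days or replicates 2 or 3 of 14 days. Their adjusted p reached 0.201 and 0.122. The difference between 7 days and 6 weeks (0.53, adjusted p = 0.0685) passed in 8 of 20 other settings, among them those without replicate 2 of 2 days, replicate 1 of 14 days or replicate 2 of 14 days.

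Ctsa (chr2:164832873-164841032, plus strand) encodes cathepsin A, a carboxypeptidase that also protects lysosomal beta-galactosidase and neuraminidase from degradation. Its CPM was 160, 237 and 164 at 2 days, 136, 130 and 119 at 7 days, 280, 234 and 225 at 14 days and 425, 346 and 411 at 6 weeks. The lowest age was 7 days, whose libraries were below all others, and the 6-week libraries were above all others. Ctsa was 3.07-fold lower at 7 days than at 6 weeks (log2 fold change -1.62, SE 0.16, adjusted p = 1.1e-05) and rose 1.91-fold from 7 to 14 days (0.94, SE 0.16, adjusted p = 0.000627). It fell from 2 to 7 days (-0.54, adjusted p = 0.0146, and 0.0775 without replicate 3 of 7 days). The 14-day level was lower than that of 6 weeks (-0.68, adjusted p = 0.0119), with adjusted p = 0.0525 without replicate 3 of 14 days and 0.0513 without replicate 1 of 6 weeks. From 2 to 14 days the difference was 0.39 (adjusted p = 0.0923) and, without replicate 2 of 2 days, 0.61 (adjusted p = 0.00299).

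The comparisons with 6 weeks ask how cells of young mice differ from those of the oldest group. At 2 days 7 of the 10 genes were lower and 2 were higher (Ctse and Ctsl), where 19.7% and 20.7% of all 15494 genes tested were called lower and higher. The libraries of the 2 ages did not overlap for 8 of the 10, against 47.2% of genes tested. The median log2 fold change of the 10 was -1.07, beside 0.04 over all genes tested. Of the 7 genes that were lower, Ctsb and Ctss had the largest differences, and Ctsd the smallest.

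At 7 days Ctsa, Ctsb, Ctsd, Ctss and Ctsw were lower than at 6 weeks, 5 of the 10 genes, and none was called higher, where 26.6% of genes tested were lower and 24.5% higher. Ctse had an unadjusted p under 0.05 on the higher side, and DESeq2 and limma-voom also called 0 of the 10 higher. Without replicate 2 of 2 days or replicate 2 of 14 days 1 gene was called higher (Ctse), and without replicate 1 of 14 days 2 were (Ctse and Ctsl). The libraries did not overlap for 9 of the 10 genes, against 69.8% of genes tested. The median log2 fold change was -0.55, beside -0.01 over all genes. With library totals alone the all-gene median moved to 0.16 and the genome-wide calls from 3790 higher and 4115 lower to 4562 higher and 3137 lower. Under that scale Ctse and Ctsh passed as higher.

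At 14 days the 6 genes Ctsa, Ctsb, Ctsd, Ctss, Ctsw and Ctsz were lower than at 6 weeks and none was called higher, against 9.26% and 9.68% of genes tested. On the higher side 0 of the 10 had an unadjusted p under 0.05, and DESeq2 and limma-voom called 0. Without replicate 1 of 6 weeks 3 of the 10, Ctsb, Ctsd and Ctss, were called lower. Over all genes 886 of 15943 were then lower, against 1434 of 15494 with that library. The libraries of 8 genes did not overlap, against 44.1% of genes tested, and the median log2 fold change was -0.69 beside 0 over all genes. The 3 comparisons share the 6-week libraries.

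**Figure D2:**
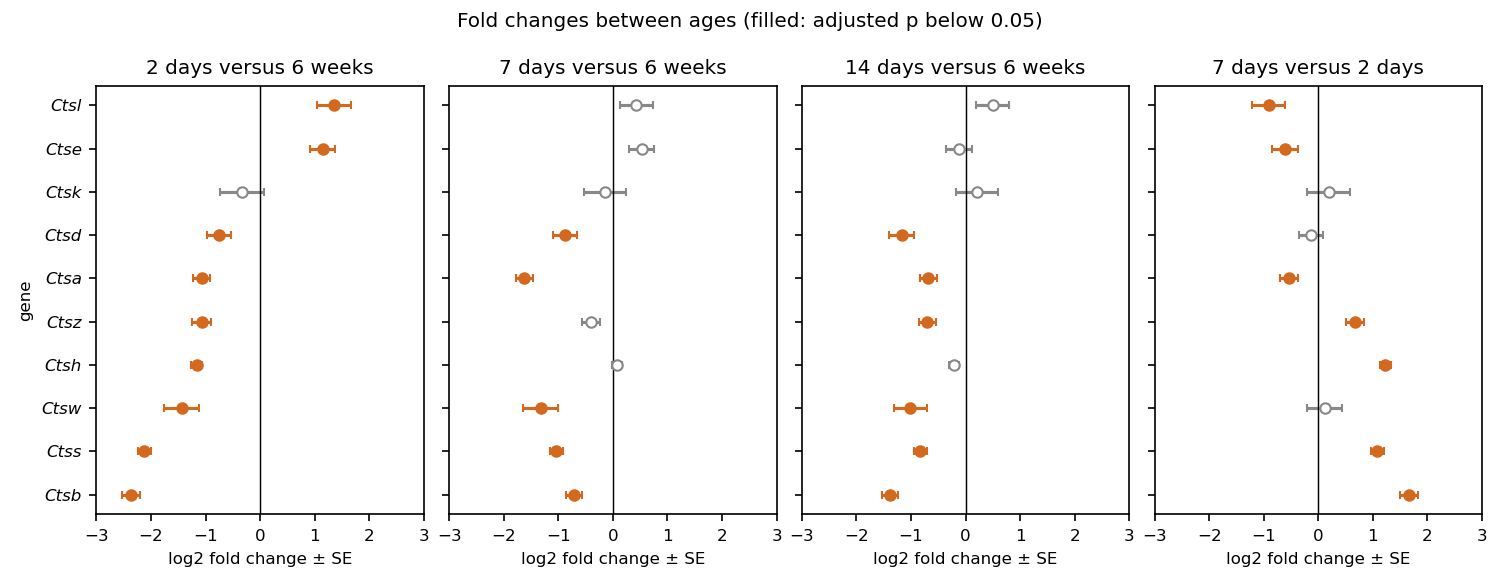
Log2 fold change ± SE (horizontal axis) of the 10 cathepsin genes (vertical axis) for 2, 7 and 14 days against 6 weeks and for 7 days against 2 days, with filled points where the adjusted p is under 0.05. Ctsb at -2.37 and Ctss at -2.12 lie farthest to the left at 2 days against 6 weeks, and Ctse at 1.15 and Ctsl at 1.35 lie to the right.

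Within the first weeks the members moved both ways, and the counts that fell were near the shares of all genes. From 2 to 7 days Ctsb, Ctsh, Ctss and Ctsz rose and Ctsa, Ctse and Ctsl fell, 4 and 3 of the 10 genes, where 22.9% of genes tested rose and 25.8% fell. No overlap between libraries was seen for 7 of the 10, against 55.0% of genes tested, and the median was 0.16 beside -0.01. The count of 3 that fell became 1 without replicate 1 or 3 of 2 days or replicate 1 or 2 of 7 days, and 0 without replicate 3 of 7 days. Over all genes 2979 of 15909 fell without replicate 3 of 7 days, against 3991 of 15494 with it. The gains of Ctsb, Ctsh, Ctss and Ctsz passed in all 20 other settings.

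From 7 to 14 days only Ctsa rose, 1 of the 10, and Ctsb, Ctse and Ctsh fell, against 24.0% of genes tested that rose and 21.9% that fell. Without replicate 3 of 14 days 1 gene, Ctsb, was still called lower. The libraries of 4 genes did not overlap, against 63.9%, and the median was -0.11 beside 0.02. From 2 to 14 days Ctsb, Ctsh and Ctss were higher at the later age and Ctse was lower, 3 and 1 of the 10, against 12.8% and 12.3% of genes tested. Without replicate 2 of 2 days 5 genes were called higher, with Ctsa and Ctsz added. Over all genes 3047 of 15967 were then higher, against 1978 of 15494 with that library. Ctsl passed as lower without replicate 2 of 2 days or replicate 1 of 14 days. Libraries did not overlap for 4 genes, against 33.4%, and the median was 0.41 beside -0.03.

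The balance within the family also differed between libraries. Summed over the 10 genes, the level was 1840 to 2679 CPM at 2 days, 2739 to 2965 at 7 days, 2278 to 2426 at 14 days and 4299 to 5309 at 6 weeks. Libraries of 6 weeks therefore held the most cathepsin RNA, and those of 2 and 14 days overlapped. As a share of the summed CPM per kilobase, Ctsd made up 66.5 ± 5.65% at 2 days, 51.6 ± 1.31% at 7 days, 49.3 ± 7.02% at 14 days and 54.3 ± 4.01% at 6 weeks (SD, n = 3). The share of Ctsb was 6.52 ± 1.25%, 16.9 ± 0.153%, 12.5 ± 3.16% and 16.1 ± 2.28% at the same ages. Every 2-day library had a larger share of Ctsd and a smaller share of Ctsb than every library of the later ages.

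Ratios within a library do not depend on how libraries are scaled. The Ctsb count was 0.328, 0.188 and 0.253 times the Ctsd count in the 2-day libraries, 0.81 to 0.866 times at 7 days, 0.4, 0.855 and 0.777 times at 14 days and 0.6 to 0.922 times at 6 weeks. Replicate 1 of 14 days lay between the 2-day libraries and the rest. The Ctss count was 0.646 to 0.897 times the Ctsl count at 2 days, 2.97 to 3.59 times at 7 days, 1.78, 5.59 and 5.84 times at 14 days and 7.88 to 9.48 times at 6 weeks. The ratio of Ctss to Ctsl was thus lower in each 2-day library than in each later one. The ratios compare counts and carry the different lengths of the genes.

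**Figure D3:**
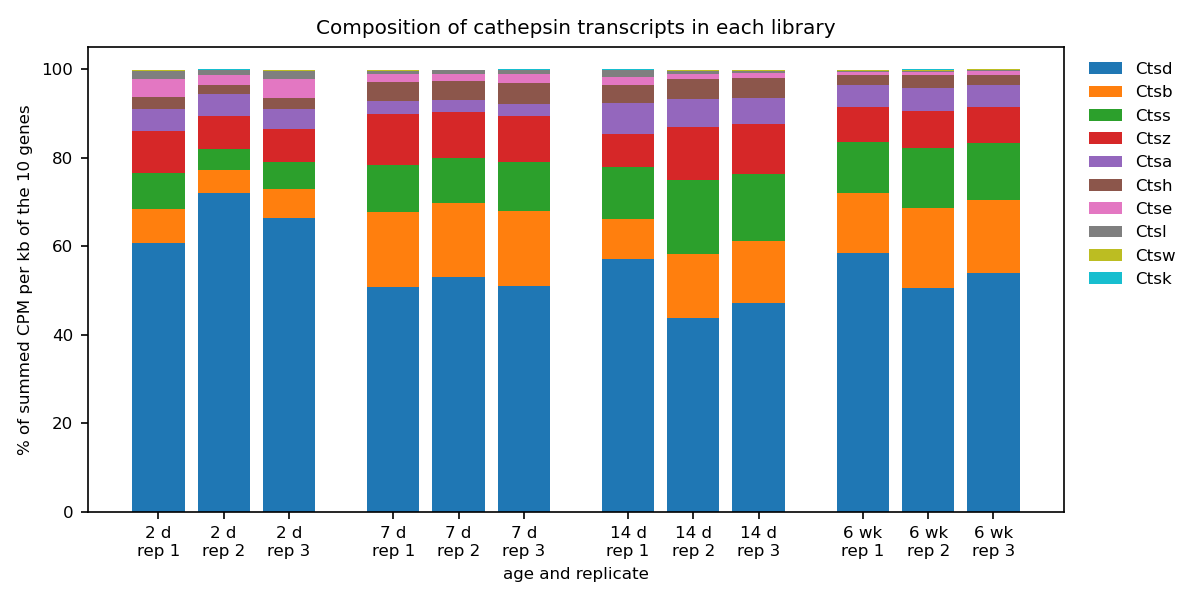
Share of each gene in the summed CPM per kilobase of the 10 cathepsin genes (vertical axis, percent) in each of the 12 libraries (bars, by age and replicate). Ctsd is the largest segment in each bar, with 60.8 to 72.1% at 2 days, and the Ctsb segment widens from 5.27 to 7.76% at 2 days to 13.6 to 18.1% at 6 weeks.

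A further 4 cathepsin genes were expressed. Ctsc encodes dipeptidyl peptidase I, which activates neutrophil granule serine proteases, and had 66.2 ± 8.59 CPM at 2 days, 121 ± 4.53 at 7 days, 67.9 ± 17.2 at 14 days and 179 ± 4.9 at 6 weeks. It was lower than at 6 weeks at all 3 younger ages, by -1.44 (adjusted p = 3.41e-05), -0.56 (adjusted p = 0.0125) and -1.4 (adjusted p = 0.000209) on the log2 scale. The order of its means over the ages was that of Ctsb, with 2 and 14 days close together. Ctsg, the serine protease of primary granules, had 29.3 ± 9.96 CPM at 2 days, 15 ± 2.9 at 7 days, 2.89 ± 0.713 at 14 days and 2.85 ± 0.838 at 6 weeks, and was higher at 2 days by 3.36 (SE 0.31, adjusted p = 5.25e-06) and at 7 days by 2.39 (adjusted p = 5.4e-05). Ctsf, a cysteine cathepsin, was lower at 14 days than at 6 weeks (-2.03, adjusted p = 0.00154) at a level of 1.85 ± 1.02 against 7.59 ± 0.785 CPM. Ctso, of the same class, was lower at 7 days than at 6 weeks (-1.09, adjusted p = 8.21e-05), with 7.67 ± 0.788 against 16.3 ± 0.687 CPM. Both were also called lower at 2 days than at 6 weeks, with 2.96 ± 0.108 CPM for Ctsf and 11.4 ± 0.772 for Ctso. Ctsf had 8.77 ± 0.847 CPM at 7 days and Ctso 12.7 ± 2.3 at 14 days.

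Among 16 genes for inhibitors of cathepsins and related proteases, 15 passed the filter. At 2 days 7 were higher and 6 lower than at 6 weeks, at 7 days 6 and 6, and at 14 days 5 and 4. In percent these are 46.7 and 40, 40 and 40, and 33.3 and 26.7. Of all genes tested, 20.7% and 19.7%, 24.5% and 26.6%, and 9.68% and 9.26% were higher and lower. The medians were 0.16, 0.07 and -0.19 on the log2 scale. The 2-day median was 0.08, and 6 were lower at 14 days, without replicate 2 of 2 days, and without replicate 1 of 14 days the 14-day median was -0.1. Those that were higher were led by the stefin A genes, cytosolic inhibitors of cysteine cathepsins. Stfa1 stood at 7506 ± 2235 CPM at 2 days, 4431 ± 375 at 7 days, 247 ± 36.5 at 14 days and 18.6 ± 2.65 at 6 weeks, a log2 fold change of 8.66 (SE 0.3, adjusted p = 4.02e-09) at 2 days against 6 weeks. Stfa3 was higher by 9.87 at 2 days, 9.53 at 7 days and 5.03 at 14 days, and BC100530, a further stefin A gene, by 5.09 at 14 days. Stefin A genes are near-identical copies, and how their reads were divided is uncertain. The secreted cystatin C gene Cst3, chosen after its values were seen, was lower at 2 days (-0.71, adjusted p = 0.00628) and 7 days (-0.89, adjusted p = 0.00122) than at 6 weeks. Summed over the list, inhibitor RNA was 16209 to 30128 CPM at 2 days, 13497 to 15133 at 7 days, 1758 to 2019 at 14 days and 1195 to 1292 at 6 weeks. The libraries of 2 and 7 days were thus all above those of 14 days, and these above those of 6 weeks.

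The counts for the other lysosomal genes are read against the shares of all genes tested, which were 20.7% higher and 19.7% lower at 2 days, 24.5% and 26.6% at 7 days and 9.68% and 9.26% at 14 days. Of 36 genes for other lysosomal hydrolases, 19 were lower and 4 higher at 2 days than at 6 weeks, 28 and 1 at 7 days, and 12 and 6 at 14 days. The shares that were lower were 52.8%, 77.8% and 33.3%. Their median log2 fold changes were -0.41, -0.69 and -0.36. Without replicate 2 of 2 days 19 rather than 12 were lower at 14 days, and without replicate 1 of 14 days 2 rather than 1 were higher at 7 days. Over all genes 2263 of 15967 were lower at 14 days without replicate 2 of 2 days, against 1434 of 15494 with it. Pla2g15, a lysosomal phospholipase, was lower by -2.68 (adjusted p = 3.16e-07) at 2 days and -2.03 (adjusted p = 1.73e-05) at 14 days. Acp2, a lysosomal acid phosphatase, was lower by -1.57 and -1.4 at the same ages. At 7 days the smallest p belonged to Ids (-1.93) and Sgsh (-1.53), sulfatases that degrade glycosaminoglycans.

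Of 26 genes for lysosomal membrane proteins and the proton pump that acidifies the lumen, 4 were higher and 4 lower at 2 days, 1 and 20 at 7 days and 0 and 2 at 14 days against 6 weeks. The 20 at 7 days made up 76.9% of the list, while 15.4% were higher and 15.4% lower at 2 days and 7.69% lower at 14 days, no larger than the shares of all genes. The 2-day counts became 3 and 10, and the 14-day counts 1 and 7, without replicate 2 of 2 days. Calls over all genes rose in that setting too. They were 4123 higher and 4047 lower at 2 days and 2422 and 2263 at 14 days, of 15967 tested. With that library they were 3214 and 3049 at 2 days and 1500 and 1434 at 14 days, of 15494. Without replicate 1 of 14 days 1 was lower at 14 days. Atp6v1h, a pump subunit, was higher at 2 days by 0.93 (adjusted p = 0.000199) and the tetraspanin Cd63 by 0.62, while the pump accessory gene Atp6ap1 was lower at 7 days by -1.39 (adjusted p = 2.99e-05). Lamp1, a major membrane glycoprotein of lysosomes, was lower by -0.37 (adjusted p = 0.0164) at 14 days. Laptm5, a lysosomal membrane protein of blood cells, was lower by -0.94 at 7 days and -0.39 (adjusted p = 0.0493) at 14 days.

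The 14 genes for sorting and processing numbered 0 higher and 4 lower at 2 days, 3 and 4 at 7 days and 0 and 3 at 14 days against 6 weeks. At 2 and 7 days 28.6% were lower and at 7 days 21.4% higher, near the shares of all genes. At 14 days 21.4% were lower, against 9.26% of all genes. None was higher at 2 or 14 days, against 20.7% and 9.68%. At 2 days 6 were lower without replicate 2 of that age, and 8 without it and replicate 1 of 14 days. Over all genes 4047 of 15967 and 4428 of 15908 were lower in these settings. Igf2r, a receptor for the mannose phosphate tag, was lower at 2 days (-0.99, adjusted p = 0.000114). Lgmn, the asparaginyl endopeptidase that matures several cathepsins, was lower at 2 days (-1.54, adjusted p = 0.000153) and at 14 days (-1.42, adjusted p = 0.000947). Nagpa, which uncovers the tag, was lower at 7 days (-0.84) and 14 days (-0.42), and Scarb2, a transport receptor, at 7 days (-0.99). Of 7 genes for regulators of lysosomal genes, 2, 2 and 1 were lower at 2, 7 and 14 days and none higher. These are 28.6%, 28.6% and 14.3%, near the shares of all genes. Without replicate 2 of 2 days 4 were lower at 2 days and 3 at 14 days, and without replicate 1 of 14 days 2 were lower at 14 days. Without both libraries 5 were lower and 1 higher at 7 days. Over all genes 4942 of 15908 were then lower and 5112 higher at 7 days. Tfeb, whose product binds CACGTG, was lower at 2 days (-0.67, adjusted p = 0.0019) and 7 days (-1.18, adjusted p = 2.66e-05). Of the genes whose searched windows held CACGTG, Ctsa and Ctsd were lower at 2 days than at 6 weeks and Ctsl was higher. A link to Tfeb was not tested. Tfec was lower at 2 days (-1.42) and 14 days (-2.06), and Flcn at 7 days (-0.7).

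Markers of other cells moved with age beside the cathepsins. Their counts are read against the shares of all genes tested given above for the comparisons with 6 weeks. From 2 to 7 days 22.9% of all genes rose and 25.8% fell, and from 7 to 14 days 24.0% and 21.9%. In bulk samples fewer cells of a type and less RNA per cell cannot be told apart. The 17 macrophage markers summed to 1027 to 1503 CPM at 2 days, 3051 to 3220 at 7 days, 1393 to 2028 at 14 days and 5800 to 6237 at 6 weeks, the order of ages that Ctsb also had. Of these 16, 11 and 16 were lower at 2, 7 and 14 days than at 6 weeks, 1 was higher at 7 days, and none was at 0 in any age. Without replicate 1 of 14 days 15 were lower at 7 days. From 2 to 7 days, when Ctsb, Ctsh, Ctss and Ctsz rose, 16 of the 17 rose and none fell. Other lists rose then too. Of 10 B cell markers tested 10 rose and 0 fell, of 8 eosinophil markers 6 and 1, and of 9 dendritic cell markers 5 and 1. Of 11 monocyte markers 4 rose and 2 fell. Against 6 weeks, 8 dendritic cell and 7 monocyte markers were lower at 2 days, and 0 and 2 higher. The part of macrophage RNA, or of RNA of these other cells, in these results was not tested. The 7 MHC class II genes, whose invariant chain cathepsin S cuts, summed to 334 to 622 CPM at 2 days, 940 to 1181 at 7 days, 1976 to 3326 at 14 days and 2872 to 3599 at 6 weeks, and none was at 0. All 7 were lower at 2 and 7 days than at 6 weeks and rose from 2 to 7 days, and 0 of 7 passed between 14 days and 6 weeks.

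Beside Ctsw, the 18 T and NK cell markers summed to 85.9 to 129 CPM at 2 days, 130 to 178 at 7 days, 76.2 to 152 at 14 days and 215 to 269 at 6 weeks. Against 6 weeks 13, 8 and 8 were lower and 1, 1 and 0 higher at 2, 7 and 14 days, and none was at 0. The shares that were lower, 72.2%, 44.4% and 44.4%, stand beside 19.7%, 26.6% and 9.26% of all genes. Without replicate 2 of 2 days 2, and without replicate 1 of 14 days 3, were higher at 7 days. As with Ctsw, the 6-week libraries were above all others. Beside Ctse and Ctsl, 11 of 12 mast cell and basophil markers were higher and none lower at 2 days than at 6 weeks, with a median log2 fold change of 7.58. Cpa3 fell from 693 ± 185 CPM at 2 days to 13.5 ± 1.99 at 7 days and 0.762 ± 0.282 at 6 weeks, and Tpsab1 and Mrgprb1 were at 0 counts in all libraries of 14 days and 6 weeks. The sum of the list, 4021 to 6643 CPM at 2 days, 650 to 857 at 7 days, 1030 to 1103 at 14 days and 1420 to 1638 at 6 weeks, came after 2 days mostly from Hdc, the histidine decarboxylase gene, with 599 ± 101, 1017 ± 45.7 and 1475 ± 110 CPM.

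Other lists also moved beside Ctse and Ctsl. Of 11 stromal and endothelial markers tested 10 were higher and 1 lower at 2 days than at 6 weeks, with a median of 3.45. Their sum was 61 to 146 CPM at 2 days, with replicate 2 the lowest, 81.5 to 91.5 at 7 days, 49.9 to 55.9 at 14 days and 75.5 to 80.4 at 6 weeks, where Lum was at 0. Of 8 megakaryocyte and platelet markers tested 5 were higher and 1 lower at 2 days than at 6 weeks, and the sum was 53.2 to 58.3, 26.3 to 34, 27.3 to 28.6 and 17.9 to 18.7 CPM in order of age, with Gp6 at 0 at 6 weeks. Erythroid markers, listed because Ctse is expressed in red cell precursors, summed to 536 to 1034 CPM at 2 days, 4050 to 6768 at 7 days, 134 to 423 at 14 days and 217 to 684 at 6 weeks, and none was at 0. Of 16 tested 15 rose from 2 to 7 days and 16 fell from 7 to 14 days.

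The 8 osteoclast markers, beside Ctsk, summed to 281 to 383 CPM at 2 days, 266 to 307 at 7 days, 393 to 445 at 14 days and 445 to 490 at 6 weeks. Calcr was at 0 at 2, 7 and 14 days and Dcstamp at 7 days. Most of the sum was Nfatc1, with means of 250, 163, 289 and 310 CPM in order of age. Ocstamp had means of 0.6, 0.134, 1.27 and 1.35 CPM. Of 6 tested, 3 were lower and 0 higher at 2 days and at 7 days than at 6 weeks. Without replicate 2 of 2 days 5 were lower at 2 days. The part of these cells in the levels of Ctse, Ctsk, Ctsl and Ctsw was not tested.

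Replicate 1 of 14 days stood apart in several of these sums. Its macrophage sum was 1393 CPM against 1904 and 2028, its MHC class II sum 1976 against 3326 and 3237, and its monocyte sum 2562 against 1658 and 1613. Most of the last difference was 1 gene, the immediate early gene Nr4a1, with 1837 CPM against 1048 and 1040. In the same library Ctsb, Ctss, Ctsw and Ctsz were lower and Ctsa, Ctsd, Ctse and Ctsl higher than in the other 14-day libraries. Ctsc, Ctsf, Ctsg and Ctso were lower there too. Heat shock and handling genes, listed together, summed to 31191 to 35953 CPM in the 7-day libraries, against 6831 to 19852 in all others. The most abundant of them, Hspa1a and Dusp1, went opposite ways at 7 days. Hspa1a had 11838 ± 1387 CPM there, against means of 14.4, 15.4 and 88.3 at 2 days, 14 days and 6 weeks. Dusp1 had 444 ± 66.3 CPM, against 4258, 3730 and 2927. Every comparison that involves 7 days carries these differences. Among them are the low Ctsa level at 7 days and the gains of Ctsb, Ctsh, Ctss and Ctsz from 2 to 7 days. So are the lower lysosomal hydrolase and membrane genes at 7 days. The part of either response in these results was not tested.

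**Figure D4:**
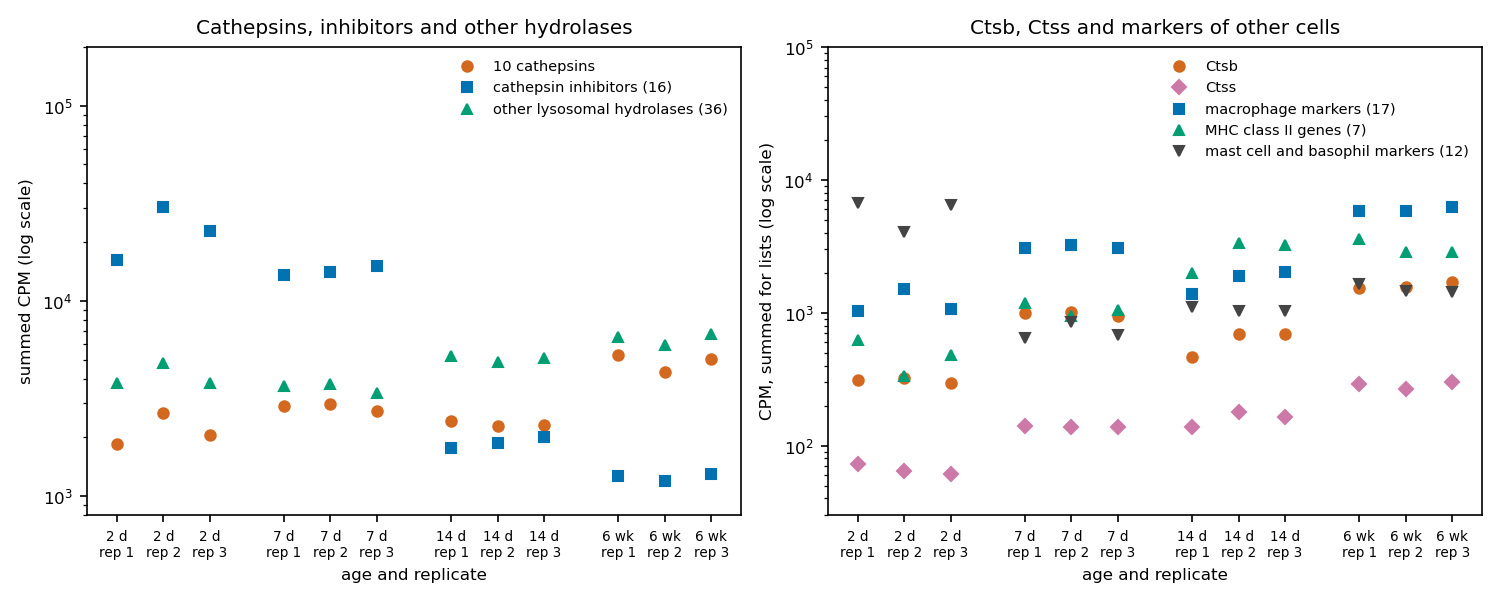
Summed CPM per library on log axes for the 10 cathepsin genes, 16 inhibitors and 36 other hydrolases (left) and for Ctsb, Ctss and the macrophage, MHC class II and mast cell and basophil marker lists (right), by age and replicate. The inhibitor sum drops from 13497 CPM or more at 2 and 7 days to 2019 CPM or less later, and the macrophage sum and Ctsb are both lowest at 2 days and highest at 6 weeks.

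Patterns across the 12 libraries were compared by Pearson's r of log2 CPM over 7562 genes, as a description only, since libraries of one age share their differences. Closest to Ctsb were Sash1 and Itgad (both r = 0.994) and Mpzl1 (0.991), of which Itgad encodes an integrin of splenic macrophages. The nearest to Ctss were Tmem51 (0.993), C6 (0.99) and Ccr3 (0.989), of which Ccr3 is in the list of eosinophil markers. Nearest to Ctsz were Cd302 (0.976), Igf1 (0.973) and Nr1h3 (0.967). For Ctsh they were Magt1 (0.97), Nrp1 (0.968) and Tmem135 (0.966). Ctsa was matched by Slco3a1 (0.99), Rufy4 (0.989) and Epsti1 (0.985), and Ctsd by Cfp (0.979), AI467606 (0.978) and Phf23 (0.971). Ctsl was followed by Slc25a20 (0.953), Riok3 (0.952) and Larp4 (0.951), Ctse by Zfp821 (0.949), Bzw1 (0.933) and Bcl2l1 (0.927), and Ctsw by Ddrgk1 (0.966), Il2rg (0.934) and Inf2 (0.93). Ctsk had the weakest neighbours, Tmx3 at 0.862 and Nfat5 and D16Ertd472e at 0.822. Within the family, r was 0.95 for Ctsb with Ctsz, 0.92 for Ctsb with Ctss and 0.88 for Ctse with Ctsl, and -0.83 for Ctsb with Ctsl.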

How the data were processed

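The 12 libraries are polyadenylated RNA of Ly6G+ spleen cells, extracted with Trizol and primed with random hexamers, per the labels' protocols. The authors deposited 1 table of whole-number counts per Ensembl gene. The submitters' processing notes name RSEM 1.2.3, DESeq2 and build mm10 without their roles, so the deposited counts may be rounded estimates. Strand and the handling of overlapping genes are not given in the sources used here. Of 38887 identifiers 37570 received a symbol and position from GENCODE M21 (GRCm38), and the other 1317 stayed in the library totals.

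Counts were tested with edgeR 4.0.16 (R 4.3.3): trimmed mean of M-values factors, filterByExpr with a minimum count of 10, and the quasi-likelihood test in 1 model of all 12 libraries with age as the only term. P-values were adjusted by the Benjamini-Hochberg method over 15494 genes, with a threshold of 0.05. SE was taken as the size of the log2 fold change over the root of its F statistic. CPM uses the normalized library sizes. The procedure was tested on simulated counts. There it missed some of the smaller changes, and the criterion for passing, first set for every size of change, was then limited to the larger ones. The 20 other settings covered size factors, scaling, filtering, DESeq2 1.42.0, limma-voom 3.58.1, a replicate block, fits of 2 ages, each library left out and, chosen after seeing the data, both outlying libraries left out. Libraries were compared in pairs, and none was a repeat of another within sampling noise.

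The members and gene lists were chosen with earlier results of these data known. All 10 members were named whatever their values. The other cathepsins were named too, and from each further lysosomal list the 2 called genes with the smallest p in each comparison with 6 weeks. For each member the 3 genes with the highest r were named, among genes with a mean of at least 10 CPM, on log2 CPM with a prior count of 2.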

Additional observations from a re-analysis of the deposited data

How the results depend on the processing

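Over the 60 fold changes of members and 20 other settings there were 1200 values. Of these 1107 kept their direction and their side of the threshold, 38 lost the threshold, 37 passed it newly and 18 changed sign. None of the 35 called fold changes changed sign in any of these settings, and 26 kept their call in all of them. Signs changed for uncalled differences. Against 6 weeks, Ctsk at 7 days became 0.04 with library totals alone and Ctsl at 14 days -0.1 without both outlying libraries. From 2 to 7 days Ctsd became 0.05 with library totals alone and 0.16 without both libraries, and Ctsw -0.12 without both. From 7 to 14 days Ctsl became -0.07 with library totals alone, -0.09 with limma-voom, -0.03 with the replicate block and -0.56 without both. With 1 library left out, the ranges were -0.66 to 0.05 for Ctsk and -0.48 to 0.06 and -0.11 to 0.76 for Ctse and Ctsl at 2, 14 and 14 days against 6 weeks. They were -0.24 to 0.16, -0.15 to 0.55 and -0.11 to 0.49 for Ctsd, Ctsk and Ctsw from 2 to 7 days, and -0.55 to 0.33 for Ctsl from 7 to 14 days. The cause was not tested.

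Counts of called members took 90 values in the settings other than those without 1 library or both outlying ones, and 81 of these stayed within 1.5 times the count reported. The count higher at 7 days than at 6 weeks, 0 as reported, was 2 with library totals alone, in a fit of the 2 ages and without both outlying libraries, and 1 with no filter and with the replicate block. Without both libraries the counts from 7 to 14 days were 2 higher and 5 lower and the count higher from 2 to 14 days was 5. The count lower from 2 to 14 days was 2 in place of 1 with library totals alone, no filter, DESeq2, limma-voom, the replicate block and without both libraries. With 1 library left out, the counts ran from 0 to 2 (higher, 7 days against 6 weeks), 3 to 6 (lower, 14 days against 6 weeks), 0 to 3 (lower, 2 to 7 days), 1 to 3 (lower, 7 to 14 days), and 3 to 5 higher and 1 to 2 lower (2 to 14 days). Calls over all genes moved with the library left out too. Replicate numbers did not pair the libraries. Deviations of same-numbered libraries correlated between -0.253 and 0.202, with 2 of 18 pairs over 0.1, and those of other pairs between -0.183 and 0.226. Depth limits Ctsk (9 to 33 counts a library) and Ctsw (43 to 279).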
